A study of Gallus gallus with 21 samples.

Results

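The genes of voltage-gated and potassium channels were followed through the adult chicken feather follicle. A gene was taken when its symbol began with KCN, CACN or SCN and its mean reached 1 TPM in at least 1 group of samples. TPM is each gene's share of the transcripts of a library after the length of its transcript is taken into account. The rule took 68 of 13815 genes in experiment 1 and 75 of 23789 genes in experiment 2. Together these were 80 genes, of which 63 passed in both experiments. Another 5 passed only in experiment 1, and 12 passed only in experiment 2 and had no values in experiment 1. All 68 genes with matching symbols in experiment 1 passed. Of its 13815 genes, 13804 reached 1 TPM in at least 3 libraries, against 14915 of 23789 in at least 2 libraries of experiment 2. The 2 totals therefore do not cover low genes alike. In experiment 2 the symbols of 108 genes matched, and 33 of them stayed below 1 TPM in every group, 5 of these with 0 in all libraries. Just inside the level lay KCNN3 (highest group mean 1.42 TPM), KCNJ13 (1.63 TPM) and KCNJ11 (2.09 TPM) in experiment 1, and KCNJ5 (1.12 TPM), KCNH2 (1.2 TPM) and CACNG4 (1.28 TPM) in experiment 2. Just outside it in experiment 2 lay KCNJ11 (0.809 TPM), KCNJ16 (0.731 TPM) and KCNA10 (0.721 TPM).

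Not every gene taken by its symbol is a voltage-gated channel. SCNN1A, SCNN1B and SCNN1G encode the epithelial sodium channel, which does not open with voltage, and SCNM1 encodes a factor of messenger RNA splicing. The genes were chosen by their level in the same libraries that are compared here. A gene that passed only through 1 high group was more likely to be called different, so the counts over the set are descriptions. In experiment 1, 39 of the 68 genes reached 1 TPM in all 4 groups and 4 in 1 group only. In experiment 2 these numbers were 31 and 20 of 75.

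All libraries were bulk RNA from contour feather follicles of untreated male white leghorn chickens aged 1 year. Experiment 1 divided the early growth follicle into the dermal papilla, a condensed dermal cluster at the follicle base, the dermal sheath around it, and the peripheral and central parts of the pulp, the loose mesenchyme inside the growing feather, with 3 libraries each. Experiment 2 took pulp at early growth, at late growth and close to rest, with 2 libraries each, and the apical dermal papilla of resting follicles, with 3 libraries. Whether replicates were different birds or pooled tissue is not given in the labels, and the p-values therefore cover the spread between libraries alone, which may be technical. In bulk tissue, fewer cells of a type and less RNA per cell cannot be told apart.

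Potassium channels set the resting potential of a cell and bring it back after excitation. Calcium channels turn a change in membrane potential into calcium entry, and sodium channels carry the fast inward current of excitable cells. Pore subunits work with partner subunits that change their number at the surface and the speed of opening and closing. Their part in growth is known outside nerve and muscle: in zebrafish, mutations in potassium channel genes change the length of fins, and in the chick embryo, calcium activity of the mesenchyme accompanies the growth of feather buds.

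Markers of 10 cell types were summed in each library, since channel levels can move with the cells present. The 8 fibroblast and dermal mesenchyme markers were all above 1 TPM in every group, summing to 19007 to 25693 TPM in experiment 1 and 9183 to 33278 TPM in experiment 2. The 10 smooth muscle markers summed to 27879.8 to 30179 TPM in the papilla and 14437 to 18650.4 TPM in the sheath, against 192 to 303 TPM in the peripheral pulp, 895 to 1289.7 TPM in the central pulp and 219 to 733 TPM in experiment 2. The pericyte markers summed to 2965 to 3247 TPM in the papilla and 1909 to 2106 TPM in the sheath against 149.9 to 273 TPM in the peripheral pulp. The skeletal muscle sum was 3502 to 3792 TPM in the papilla, 2005 to 2909 TPM in the sheath and 2.16 to 5.52 TPM in the peripheral pulp. In both papilla and sheath it rested almost wholly on ACTA1, with a mean of 3680 TPM out of 3684 TPM in the papilla and 2359.9 TPM out of 2360.6 TPM in the sheath. Of 4 measured markers, 1 reached a mean of 1 TPM in the sheath and in the peripheral pulp, 3 in the papilla and 4 in the central pulp. TNNT3 had a mean of 2.46 TPM in the papilla. Keratinocyte markers stood highest in the sheath (6509 to 9911 TPM) and in near resting pulp, where replicate 1 summed to 24376 TPM and replicate 2 to 8821 TPM. Leukocyte markers were at 191 to 212 TPM in the papilla and 1104 to 1227 TPM in the central pulp. Endothelial markers ranged over 523 to 919.9 TPM and 353 to 835 TPM, and erythroid markers over 1043 to 4129 TPM and 244 to 5456 TPM, in experiments 1 and 2. The sequencing depth is unknown, because TPM keeps no depth. The part of cell composition in the channel differences below was not tested beyond the values given beside them.

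The dermal base and the pulp of the growing follicle differed in the levels of channel genes. Against the mean of both pulp parts, papilla and sheath were lower in the sodium pore subunit SCN11A, the potassium channel partners KCNIP2 and KCNAB1, the calcium channel partner CACNG5 and the potassium pore subunit KCNH5. They were higher in the calcium pore subunit CACNA1H, the potassium pore subunit KCNC4, the sodium beta subunit SCN4B and the inward rectifier KCNJ2. Summed over the 68 genes, the level was 508 to 559 TPM in the sheath libraries and 686 to 801 TPM in the papilla. It was 893 to 972 TPM in the central pulp and 1036 to 1081 TPM in the peripheral pulp, with no overlap between groups. Without KCNAB1 and KCNIP2, however, the sums of the papilla and both pulp parts would overlap. KCNAB1 was at 209 to 248 TPM in the peripheral pulp, 136 to 167 TPM in the central pulp and 55.7 to 58.0 TPM in the papilla. In the same order, KCNIP2 was at 75.7 to 131 TPM, 15.3 to 34.9 TPM and at most 0.161 TPM. By limma with Benjamini-Hochberg adjustment over all genes, 54 of the 68 differed between base and pulp, 20 higher and 34 lower, where 65.2% of all 13804 tested genes differed (24.9% higher and 40.3% lower). The median log2 fold change of the 68 was -0.36, beside -0.13 over all tested genes. Median-of-ratios scaling moved that median of all genes to -0.02 and the share of higher genes among all calls from 38.2% to 48.8%, while the channel genes then split into 21 higher and 32 lower. With quantile normalization they split into 23 higher and 28 lower, so that 45.1% of the called channel genes were higher, beside 47.5% of all called genes. Over all 4 groups, 58 of 68 differed by the limma F test, where 76.3% of tested genes did.

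**Figure D1:**
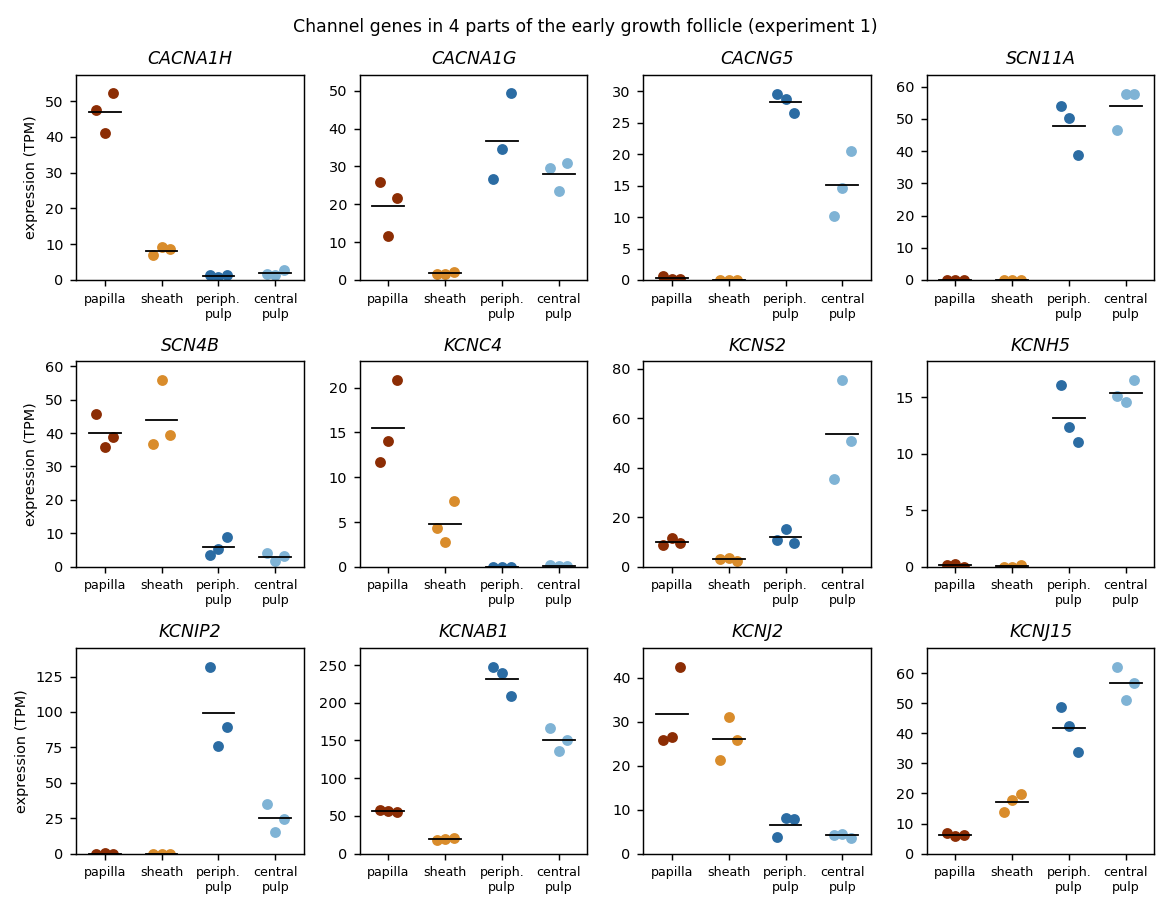
TPM of 12 channel genes in each library (points) of the 4 follicle parts of experiment 1, with group means as black lines, n = 3 per group. SCN11A, KCNH5, CACNG5 and KCNIP2 stood near 0 in papilla and sheath, KCNC4 stood near 0 in pulp, and CACNA1H was highest in the papilla.

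Among the calcium pore subunits, both low-voltage-activated (T-type) genes marked the papilla against the sheath. CACNA1H was at 47.5, 41.1 and 52.2 TPM in the papilla libraries, 6.87, 9.15 and 8.53 TPM in the sheath, 1.4, 0.85 and 1.25 TPM in the peripheral pulp and 1.69, 1.41 and 2.68 TPM in the central pulp. Every papilla library was above every sheath library, and every sheath library above all pulp libraries (log2 fold change 2.38 ± 0.20 (SE), adjusted p = 6.3e-06 for papilla against sheath, and log2 fold change 3.07 ± 0.14 (SE), adjusted p = 3.7e-09 for base against pulp). CACNA1G was at 25.8, 11.5 and 21.5 TPM in the papilla, 1.54, 1.55 and 2.08 TPM in the sheath, 26.6, 34.6 and 49.3 TPM in the peripheral pulp and 29.5, 23.5 and 30.8 TPM in the central pulp. Only the sheath stood apart from the other parts, and papilla and pulp values overlapped (log2 fold change 2.86 ± 0.28 (SE), adjusted p = 1.8e-05 for papilla against sheath). CACNA1C, the pore of the L-type channel of heart and smooth muscle, was in every library, from 11.0 to 28.9 TPM. Its rise in the papilla over the sheath (log2 fold change 0.62 ± 0.22 (SE), adjusted p = 0.041) was lost with median-of-ratios scaling (adjusted p = 0.051) and without any 1 of 3 papilla libraries, with adjusted p between 0.059 and 0.13. Leaving out sheath replicate 1 or 3 also ended that call (adjusted p = 0.16 and 0.079), as did peripheral or central pulp replicate 2 and variances without trend or robust settings (adjusted p up to 0.053). The summed smooth muscle markers, given above, were also higher in papilla than sheath. Not every marker followed the sum: DES had a mean of 4407 TPM in the papilla and 4462 TPM in the sheath. The part of smooth muscle in these differences was not tested.

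In the pulp stages the T-type gene CACNA1G fell after early growth, and CACNA1H was at most 3.39 TPM in any library. CACNA1G was at 19.9 and 25.1 TPM in early growth, 0.479 and 0.701 TPM in late growth, 0.111 and 0.136 TPM near rest, and 7.39, 8.11 and 10.5 TPM in the resting apical papilla. The groups did not overlap, and the pulp lost most of the signal between early and late growth (log2 fold change -3.88 ± 0.22 (SE), adjusted p = 7.4e-06). The resting papilla was again higher than the near resting pulp (log2 fold change 3.09 ± 0.20 (SE), adjusted p = 1e-05). CACNA1H was at 3.03 and 3.39 TPM in early growth and 1.4, 1.3 and 1.36 TPM in the resting apical papilla. Beside the 41.1 to 52.2 TPM of the growing papilla, this low resting level comes from a table normalized separately, so the pair was not tested. CACNA1C was at 25.5 ± 3.14 TPM (SD, n = 2) in early growth and 15.2 ± 1.54 TPM near rest, a fall (log2 fold change -0.71 ± 0.17 (SE), adjusted p = 0.0083) that was lost with median-of-ratios scaling (adjusted p = 0.072) and without early growth replicate 2 (adjusted p = 0.056).

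Of the 10 calcium channel partners in experiment 1, 2 were higher and 5 lower in base than pulp, where 24.9% and 40.3% of all tested genes were. CACNG5 and CACNG7 belong to a family known in mammals for guiding glutamate receptors to the surface. CACNG5 was at 29.6, 28.8 and 26.6 TPM in the peripheral pulp and 10.2, 14.6 and 20.5 TPM in the central pulp, at 0.682, 0.191 and 0.204 TPM in the papilla, and was listed at 0 in all sheath libraries. All pulp libraries were above all others (log2 fold change -4.20 ± 0.17 (SE), adjusted p = 1e-09), and peripheral above central (log2 fold change 0.91 ± 0.23 (SE), adjusted p = 0.015), a difference lost without central pulp replicate 1 (adjusted p = 0.051) and with a pseudocount of 0.1 TPM (adjusted p = 0.11). CACNG3, of the same family, ran the other way, at 14.2, 16.4 and 21.7 TPM in the papilla, 1.92, 2.65 and 1.98 TPM in the sheath and at most 1.19 TPM in pulp (log2 fold change 2.52 ± 0.22 (SE), adjusted p = 8.7e-06 for papilla against sheath). CACNG1, a subunit of the skeletal muscle calcium channel, was at 1.08, 5.63 and 3.67 TPM in the sheath, while every papilla library listed it at 0. CACNG4 was listed at 0 in all papilla and sheath libraries and was at 0.567 to 5.17 TPM in pulp. In the RefSeq annotation of GRCg7b, CACNG1 and CACNG4 are adjacent genes and CACNG5 lies 1 protein-coding gene beyond CACNG4. CACNG4 and CACNG5 both stood higher in pulp, while CACNG1 had its highest mean in the sheath. In experiment 2 all 3 genes had their highest mean in early growth pulp, at 1.70 TPM for CACNG1, 1.28 TPM for CACNG4 and 17.4 TPM for CACNG5.

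The alpha-2-delta subunits, which raise the number of calcium channels at the surface, varied between replicates. CACNA2D1 was at 29.3, 119 and 108 TPM in the papilla, 11.4, 16.3 and 18.8 TPM in the sheath, 46.7, 14.6 and 16.9 TPM in the peripheral and 81.0, 38.2 and 37.6 TPM in the central pulp. Papilla replicate 1 was below central pulp replicate 1, and the rise over the sheath (log2 fold change 2.18 ± 0.58 (SE), adjusted p = 0.013) was lost without papilla replicate 2 (adjusted p = 0.052). CACNA2D2 was at 4.54 ± 0.503 TPM in papilla and 3.21 ± 0.766 TPM in sheath (SD, n = 3), against 15.2 ± 1.61 TPM in the peripheral and 24.0 ± 8.19 TPM in the central pulp (log2 fold change -2.03 ± 0.17 (SE), adjusted p = 7e-07). In experiment 2, CACNA2D2 was at 24.1 and 28.8 TPM in late growth and 2.71 and 14.4 TPM near rest. The 2 near resting libraries lay far apart, and that fall (log2 fold change -1.85 ± 0.54 (SE), adjusted p = 0.034) was lost with median-of-ratios scaling (adjusted p = 0.072), with quantile normalization (adjusted p = 0.067), with no filter (adjusted p = 0.056) and without any 1 library outside the near resting group (adjusted p up to 0.14). Of the cytoplasmic beta subunit genes, CACNB2 was at 7.95, 8.06 and 10.8 TPM in the papilla, above the 0.452, 1.39 and 6.21 TPM of the sheath (log2 fold change 1.75 ± 0.52 (SE), adjusted p = 0.021), a difference lost without papilla replicate 3 (adjusted p = 0.066) and without sheath replicate 1 or 2 (adjusted p = 0.082 and 0.065). CACNB3 fell in late growth, from 14.4 ± 2.19 TPM to 8.56 ± 0.512 TPM (SD, n = 2, log2 fold change -0.68 ± 0.19 (SE), adjusted p = 0.017), a call lost without early growth replicate 2 (adjusted p = 0.093) and without late growth replicate 1 (adjusted p = 0.077).

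SCN11A, known in mammals as a sodium channel of pain-sensing neurons, was the sodium pore subunit with the highest level. It was at 54.1, 50.3 and 38.7 TPM in the peripheral pulp, 46.5, 57.8 and 57.7 TPM in the central pulp and 0.0663, 0.0818 and 0 TPM in the papilla, and was listed at 0 in all sheath libraries. The pulp parts overlapped each other and every pulp library was far above the base (log2 fold change -5.65 ± 0.12 (SE), adjusted p = 7.5e-12). In experiment 2, SCN11A was at 41.4 and 41.8 TPM in early growth pulp and was listed at 0 in both late growth, both near resting and all 3 resting apical papilla libraries. The Schwann cell and nerve markers summed to 234 to 252 TPM in the peripheral pulp against 448 to 496 TPM in the sheath, and 169.5 to 172 TPM in early against 222 to 224 TPM in late growth, with PMP22 alone at a mean of 206 TPM in the peripheral pulp and 132 TPM in early growth. Melanocyte markers summed to 69.0 to 189 TPM in the peripheral pulp and to 6.75 to 13.1 TPM in the central pulp. In experiment 2 they summed to 98.1 to 113 TPM in early and 189 to 200.1 TPM in late growth, but the members did not move together. PMEL went from a mean of 34.8 TPM to 179 TPM and MLANA from 46.0 TPM to 11.7 TPM, and 7 of 8 measured melanocyte markers were above 0 in early growth against 4 in late growth. The part of nerve cells and melanocytes in the SCN11A levels was not tested.

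The other sodium pore subunits were weaker. In base against pulp, 4 of the 5 were lower and 1 was higher, where 40.3% and 24.9% of all tested genes were. The higher one was SCN9A (log2 fold change 0.65 ± 0.15 (SE), adjusted p = 0.0019), with 4.75 ± 1.24 TPM in the sheath, 2.63 ± 0.478 TPM in the central pulp, 2.29 ± 0.171 TPM in the papilla and 1.1 ± 0.276 TPM in the peripheral pulp (SD, n = 3). Its mean in the papilla was thus below that in the central pulp, and not all of the base was above all of the pulp. SCN2A, a channel of brain neurons in mammals, was lower in base than pulp (log2 fold change -2.19 ± 0.23 (SE), adjusted p = 5.5e-06). It was at 0.193 ± 0.188 TPM in the papilla, 1.18 ± 0.609 TPM in the sheath, 8.41 ± 0.477 TPM in the peripheral pulp and 5.1 ± 3.26 TPM in the central pulp (SD, n = 3). It too fell in late growth pulp, from 3.93 and 4.85 TPM to 0.103 and 0.12 TPM (log2 fold change -2.27 ± 0.17 (SE), adjusted p = 2.6e-05). SCN8A was higher in the resting apical papilla, at 9.27, 3.24 and 7.87 TPM, than near rest, at 1.32 and 1.42 TPM (log2 fold change 1.62 ± 0.39 (SE), adjusted p = 0.0071).

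SCN4B, a beta subunit that changes the gating of sodium channels, had a pattern almost opposite to SCN11A. It was at 45.6, 35.8 and 38.9 TPM in the papilla, 36.8, 55.8 and 39.5 TPM in the sheath, 3.68, 5.31 and 9.01 TPM in the peripheral and 4.2, 1.66 and 3.25 TPM in the central pulp. Papilla and sheath overlapped, and all 6 of their libraries were above all pulp libraries (log2 fold change 3.06 ± 0.21 (SE), adjusted p = 1.3e-07). In experiment 2, SCN4B was at 2.84 and 1.99 TPM in early growth, 18.2 and 20.9 TPM in late growth, 6.2 and 5.66 TPM near rest and 19.2, 15.8 and 19.3 TPM in the resting apical papilla. It rose between early and late growth (log2 fold change 2.60 ± 0.19 (SE), adjusted p = 2.2e-05) and fell toward rest (log2 fold change -1.57 ± 0.19 (SE), adjusted p = 0.00072), while late growth and resting papilla values overlapped. The summed smooth muscle markers went from 255 to 297 TPM in early to 723 to 733 TPM in late growth and 219 to 258 TPM near rest, and were at 264 to 271 TPM in the resting papilla. Not every marker followed that sum: MYLK had a mean of 81.3 TPM in late growth and 101 TPM near rest. Their part in the SCN4B levels was not tested.

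The 3 subunits of the epithelial sodium channel, which takes up salt across epithelia, did not move together. SCNN1B was at 23.9, 17.7 and 18.7 TPM in the sheath, 7.94, 7.95 and 6.84 TPM in the papilla, 10.1, 4.07 and 5.75 TPM in the peripheral and 2.08, 1.18 and 1.7 TPM in the central pulp. The sheath was highest without overlap (log2 fold change -1.29 ± 0.26 (SE), adjusted p = 0.0024 for papilla against sheath), and peripheral pulp was above central pulp (log2 fold change 1.46 ± 0.26 (SE), adjusted p = 0.002). SCNN1G, its direct neighbour in GRCg7b, was also higher in the sheath (log2 fold change -1.49 ± 0.34 (SE), adjusted p = 0.0055). SCNN1A was highest in the central pulp instead, at 12.4, 12.7 and 11.8 TPM against 5.07, 5.57 and 6.47 TPM in the peripheral pulp (log2 fold change -0.99 ± 0.15 (SE), adjusted p = 0.0008). In experiment 2, SCNN1A peaked in late growth (17.7 and 15.6 TPM) and fell near rest (5.39 and 6.31 TPM, log2 fold change -1.37 ± 0.17 (SE), adjusted p = 0.00083), whereas SCNN1B rose from 3.9 and 5.22 TPM to 36.4 and 17.8 TPM (log2 fold change 2.27 ± 0.36 (SE), adjusted p = 0.0026).

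SCNN1B and KCNK1 were high in the sheath and near rest, where the keratinocyte markers were highest, but did not follow these markers in every library. KCNK1, a two-pore channel that carries a background potassium current, was at 11.1, 10.3 and 11.1 TPM in the sheath, above the 2.2, 2.05 and 2.47 TPM of the papilla (log2 fold change -1.87 ± 0.31 (SE), adjusted p = 0.00065). In peripheral pulp it was at 14.2, 5.04 and 5.07 TPM, and only replicate 1, whose keratinocyte markers summed to 1753 TPM against 496 and 579 TPM in the others, exceeded the sheath. The sheath sums were higher than that, at 6509 to 9911 TPM. Near rest KCNK1 was at 26.2 and 14.9 TPM after 4.04 and 2.56 TPM in late growth (log2 fold change 2.30 ± 0.28 (SE), adjusted p = 0.00083), with the higher value again in the library with the higher keratinocyte sum. SCNN1B had the same order of libraries within the peripheral pulp and near rest. In the papilla, however, SCNN1B was at 6.84 to 7.95 TPM with keratinocyte sums of 278 to 489 TPM. Peripheral pulp replicates 2 and 3 were lower, at 4.07 and 5.75 TPM. KCNJ15 rose near rest too, from 5.29 and 6.25 TPM to 26.2 and 12.2 TPM (log2 fold change 1.49 ± 0.30 (SE), adjusted p = 0.0078), a call lost without late growth replicate 1 (adjusted p = 0.0502). In experiment 1, however, it was highest in the central pulp, where the keratinocyte sum was lowest (90.5 to 174 TPM). The part of epidermal cells in these results was not tested.

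**Figure D2:**
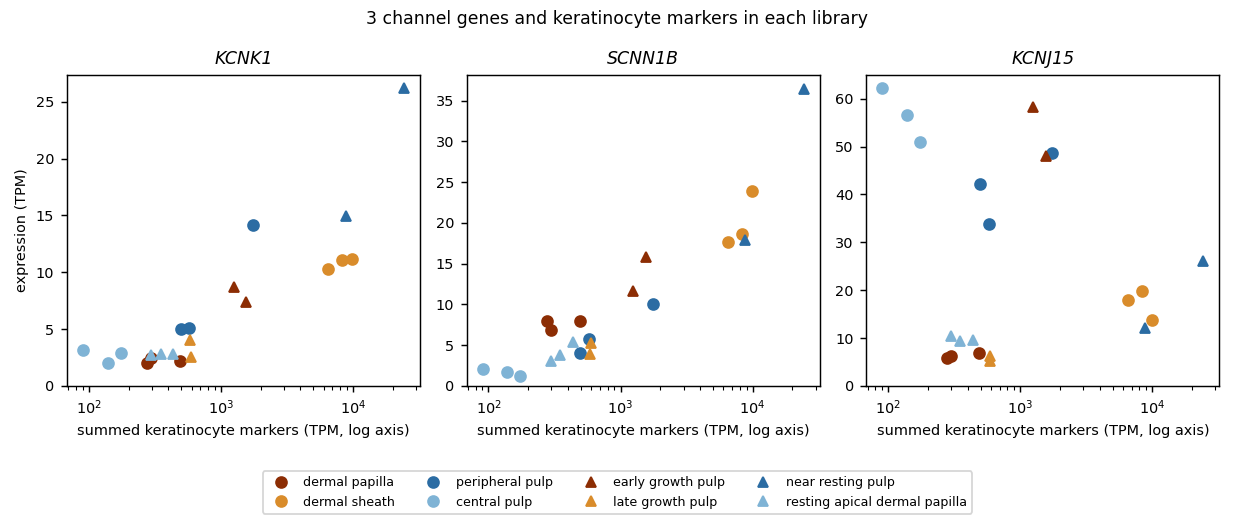
TPM of KCNK1, SCNN1B and KCNJ15 against the summed TPM of keratinocyte markers (log axis) in each of the 21 libraries, circles for experiment 1 and triangles for experiment 2, with colours for the groups. Near resting replicate 1, at 24376 TPM of markers, had the highest KCNK1 and SCNN1B, while KCNJ15 was highest in the central pulp, at most 174 TPM of markers.

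The voltage-gated potassium pore subunits lay on both sides: of 18 genes, 8 were higher and 8 lower in papilla and sheath, where 24.9% and 40.3% of all tested genes were. KCNC4, of the family of fast high-threshold channels, was at 11.7, 14.1 and 20.8 TPM in the papilla, 4.32, 2.74 and 7.3 TPM in the sheath and at most 0.16 TPM in any pulp library (log2 fold change 3.12 ± 0.20 (SE), adjusted p = 6e-08). Papilla, sheath and pulp did not overlap. Its relative KCNC2 had the reverse pattern, at 15.2, 20.8 and 13.4 TPM in central and 8.58, 9.31 and 9.93 TPM in the peripheral pulp and at most 2.17 TPM in papilla and sheath (log2 fold change -3.22 ± 0.22 (SE), adjusted p = 1.2e-07). KCNH5, of the ether-a-go-go family, was at 16.1, 12.4 and 11.1 TPM in the peripheral and 15.1, 14.6 and 16.5 TPM in the central pulp, and at most 0.216 TPM in papilla and sheath (log2 fold change -3.80 ± 0.13 (SE), adjusted p = 3.2e-10). Another member of that family, KCNH2, known for the repolarisation of the heart, was higher in base than pulp (log2 fold change 1.55 ± 0.17 (SE), adjusted p = 6.7e-06). It was at 5.61 ± 0.822 TPM in papilla and 5.31 ± 0.535 TPM in sheath, against 0.919 ± 0.665 TPM in the peripheral and 1.64 ± 0.409 TPM in the central pulp (SD, n = 3). KCNA2, a channel of myelinated axons in mammals, was in all parts at 21.3 to 49.8 TPM and higher in papilla than sheath (log2 fold change 0.74 ± 0.17 (SE), adjusted p = 0.0047), while its neighbour in GRCg7b, KCNA3, known from lymphocytes, reached at most 8.68 TPM. KCNA3 was higher in pulp (log2 fold change -1.86 ± 0.14 (SE), adjusted p = 2.4e-07), as were the leukocyte markers. In experiment 2, KCNA3 was at 2.79 and 4.83 TPM in early and 0.272 and 0.867 TPM in late growth. The leukocyte markers there summed to 776 to 779 TPM in early and 994 to 1021 TPM in late growth. The part of leukocytes in the KCNA3 levels was not tested.

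The electrically silent subunits, which form no channel alone and change those of other subunits, were spread over all parts. KCNS2 was at 35.3, 75.3 and 50.7 TPM in the central pulp, 11.0, 15.3 and 9.67 TPM in the peripheral pulp, 3.2, 3.73 and 2.4 TPM in the sheath and 8.7, 11.6 and 9.49 TPM in the papilla. Central pulp stood above all other libraries (log2 fold change -2.03 ± 0.26 (SE), adjusted p = 0.00022 for peripheral against central pulp). KCNS3 was higher in the papilla, at 9.98, 10.9 and 7.4 TPM, than in the sheath, at 0.855, 1.02 and 1.77 TPM (log2 fold change 2.24 ± 0.24 (SE), adjusted p = 3.2e-05). Its highest mean was in the peripheral pulp, at 14.9, 18.5 and 21.2 TPM, and the central pulp was at 7.98, 13.9 and 10.9 TPM. KCNG1 and KCNG2 were highest in the sheath, at 8.88 ± 2.44 TPM and 14.5 ± 1.25 TPM (SD, n = 3), against 2.83 ± 0.191 TPM and 8.02 ± 1.89 TPM in the papilla (adjusted p = 0.00023 and 0.0064). KCND3, which carries a fast inactivating current, was at 5.19, 3.55 and 7.96 TPM in the sheath, above the 0.208, 0.326 and 2.29 TPM of the papilla (log2 fold change -1.86 ± 0.37 (SE), adjusted p = 0.0022), and stayed at or below 0.572 TPM in pulp.

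KCNIP2 and KCNAB1 were the partner subunits with the largest mean levels in the peripheral pulp. KCNIP2, a calcium-binding partner of KCND channels, was at 131, 75.7 and 89.7 TPM in the peripheral pulp, 34.9, 15.3 and 24.3 TPM in the central pulp, and at most 0.161 TPM in papilla and sheath. Peripheral and central pulp did not overlap (log2 fold change 1.99 ± 0.27 (SE), adjusted p = 0.00038). KCND3, the KCND pore gene listed in experiment 1, was at or below 0.572 TPM in the same pulp libraries, as given above. KCND2 had no values in experiment 1, so its level there is unknown. In experiment 2, KCND2 was at 1.38 and 1.1 TPM in early and 3.01 and 2.93 TPM in late growth pulp. KCNAB1, a cytoplasmic beta subunit of the KCNA family, was at 248, 239 and 209 TPM in the peripheral pulp, 167, 136 and 150.4 TPM in the central pulp, 18.1, 19.9 and 21.2 TPM in the sheath and 58.0, 56.4 and 55.7 TPM in the papilla. The 4 parts did not overlap, and KCNAB1 alone made up 209 to 248 TPM of the summed channel level of peripheral pulp (log2 fold change -2.44 ± 0.07 (SE), adjusted p = 5.7e-11 for base against pulp, log2 fold change 1.48 ± 0.09 (SE), adjusted p = 9.2e-07 for papilla against sheath). Its relative KCNAB2 was at 25.8 ± 2.13 TPM in the central pulp and 21.7 ± 0.323 TPM in the peripheral pulp, against 2.96 ± 1.57 TPM in the papilla and 1.38 ± 0.378 TPM in the sheath (SD, n = 3, log2 fold change -3.05 ± 0.19 (SE), adjusted p = 4.8e-08 for base against pulp).

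KCNIP1, another calcium-binding partner, was highest in the papilla, at 3.19, 3.3 and 3.05 TPM, and reached at most 0.851 TPM in any other library of experiment 1 (log2 fold change 1.66 ± 0.28 (SE), adjusted p = 0.0007 for papilla against sheath). KCNRG, a regulator known in human cells to lower potassium currents, was at 7.55, 6.47 and 7.37 TPM in the peripheral and 3.95, 3.85 and 3.68 TPM in the central pulp, with no overlap (log2 fold change 0.75 ± 0.19 (SE), adjusted p = 0.013).

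The single-span KCNE subunits, which change how pore subunits open and close, had separate patterns. KCNE4 was at 57.5, 60.7 and 61.9 TPM in the papilla, 50.4, 58.8 and 49.8 TPM in the sheath, 16.1, 29.2 and 26.9 TPM in the peripheral and 22.3, 35.6 and 33.8 TPM in the central pulp. All base libraries were above all pulp libraries (log2 fold change 1.06 ± 0.15 (SE), adjusted p = 5.9e-05). KCNE3 was at 36.3, 106 and 127 TPM in the peripheral pulp, where replicate 1 lay below the central pulp (37.4, 48.6 and 44.7 TPM), and it did not pass the test of base against pulp (adjusted p = 0.27). KCNMB4, a beta subunit of the large-conductance calcium-activated channel, was at 18.6, 20.8 and 17.7 TPM in the peripheral and 9.8, 4.79 and 6.97 TPM in the central pulp (log2 fold change 1.33 ± 0.26 (SE), adjusted p = 0.0031).

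Among the inward rectifiers, which pass potassium more easily into the cell than out, KCNJ2 and KCNJ15 were on opposite sides. KCNJ2 was at 25.9, 26.6 and 42.5 TPM in the papilla, 21.4, 31.0 and 25.9 TPM in the sheath, 3.76, 8.01 and 7.97 TPM in the peripheral and 4.32, 4.48 and 3.6 TPM in the central pulp (log2 fold change 2.26 ± 0.19 (SE), adjusted p = 6e-07). KCNJ15 was at 6.85, 5.9 and 6.33 TPM in the papilla, 13.8, 17.9 and 19.9 TPM in the sheath, 48.7, 42.3 and 33.9 TPM in the peripheral and 62.2, 51.0 and 56.6 TPM in the central pulp (log2 fold change -2.10 ± 0.11 (SE), adjusted p = 1.1e-08). No base library of either gene overlapped the pulp. KCNJ8, the pore of the ATP-sensitive channel of vascular smooth muscle and pericytes, was in all libraries at 31.2 to 71.9 TPM. It was lower in the base (log2 fold change -0.79 ± 0.09 (SE), adjusted p = 6.7e-06), although the summed pericyte markers were higher there. Of these markers, RGS5 had a mean of 2866 TPM in the papilla and 83.3 TPM in the peripheral pulp, and PDGFRB 119 TPM and 83.6 TPM. Of the two-pore channels, KCNK13 was at 15.7, 13.4 and 10.6 TPM in the papilla, above the 1.26, 3.15 and 1.72 TPM of the sheath (log2 fold change 2.26 ± 0.35 (SE), adjusted p = 0.00044). KCNK3, an acid-sensitive member, was at 7.87, 5.23 and 5.87 TPM in the sheath, was listed at 0 in all papilla libraries and reached at most 0.382 TPM in pulp. KCNK15, a two-pore relative of KCNK3, was at 3.06 ± 0.951 TPM in the peripheral and 1.46 ± 0.217 TPM in the central pulp (SD, n = 3, adjusted p = 0.048), a call lost in most of the alternatives tried (adjusted p up to 0.17). The small-conductance calcium-activated gene KCNN1 was at 8.2 ± 0.489 TPM in the peripheral and 6.3 ± 0.534 TPM in the central pulp, against 1.42 ± 0.863 TPM in the papilla and 0.744 ± 0.139 TPM in the sheath (SD, n = 3, log2 fold change -2.02 ± 0.16 (SE), adjusted p = 3.9e-07 for base against pulp).

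Papilla and sheath differed in 29 of the 68 genes, 18 higher and 11 lower in the papilla, where 37.7% of tested genes differed (21.7% higher and 16% lower). All 3 calcium pore subunits and 7 of 18 voltage-gated potassium pore subunits were higher in the papilla. The CACNA1C call among them was lost in several alternatives, as given above. In the sheath, 3 of 6 two-pore genes and 2 of 3 epithelial sodium channel genes were higher. The median log2 fold change was 0.22, beside 0.06 over all tested genes. Peripheral and central pulp differed in 16 of 68, 10 higher and 6 lower in the peripheral pulp, where 25.2% of tested genes differed (15.6% higher and 9.51% lower), so the share of channel genes was near the background. With median-of-ratios scaling or quantile normalization 16 channel genes were also called, but 7 higher and 9 lower, and among all genes median-of-ratios scaling moved the share of higher calls from 62.2% to 43.0%. In every alternative tried, 8 of the 16 were called. The count was 10 with a pseudocount of 0.1 TPM and 10 without central pulp replicate 3.

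**Figure D3:**
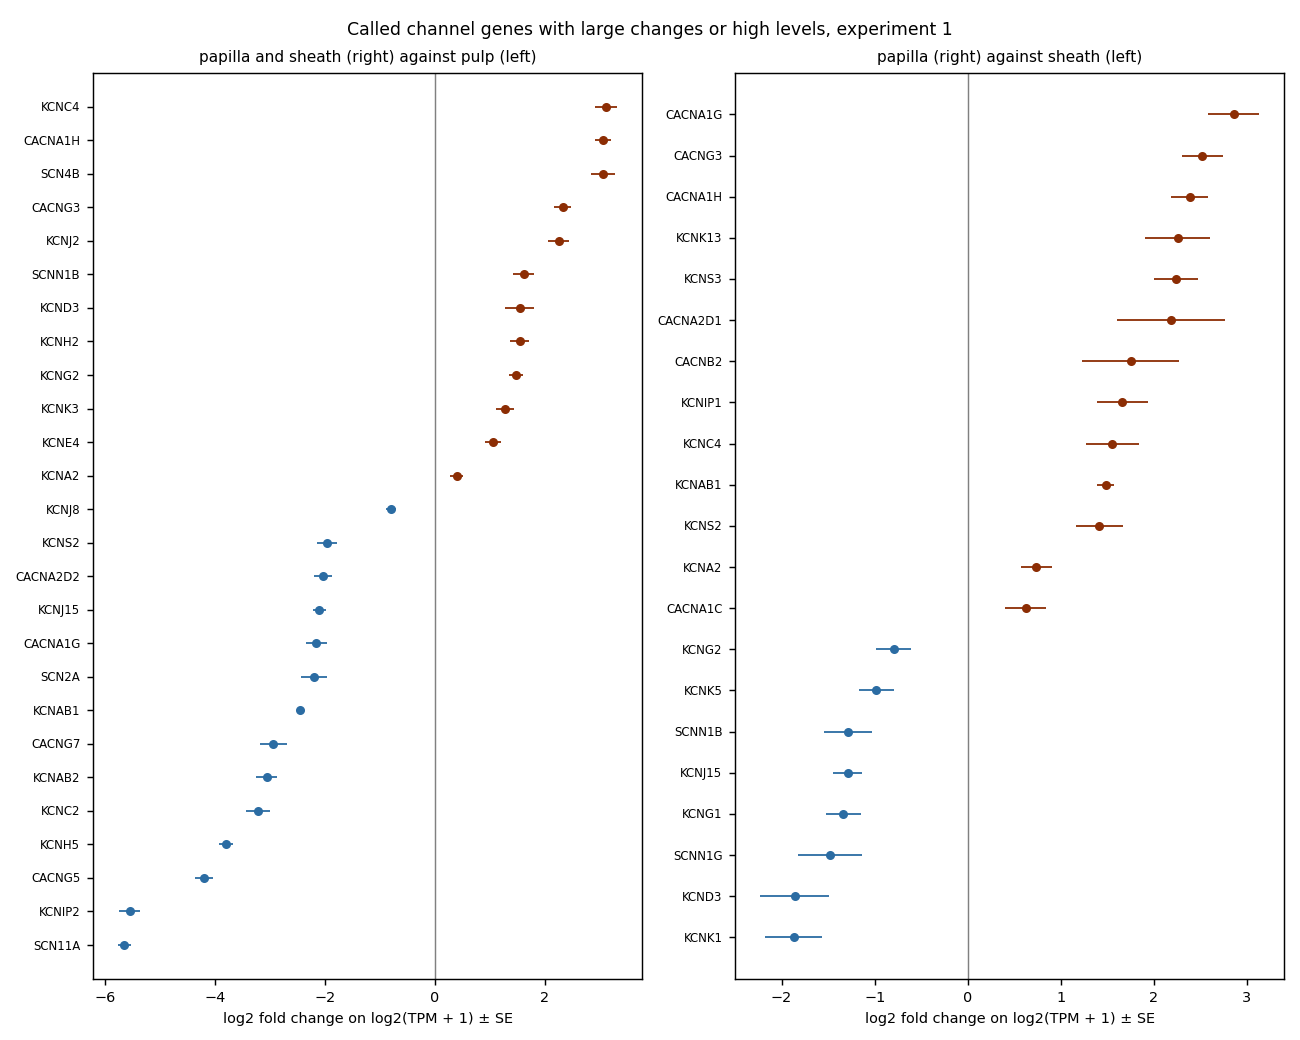
log2 fold change ± SE on log2(TPM + 1) of channel genes with large changes or high levels called by limma in experiment 1, for papilla and sheath against pulp (left) and papilla against sheath (right), without genes listed at 0 in all libraries of 1 side. SCN11A and KCNIP2 had the lowest values and KCNC4 the highest on the left, and CACNA1G the highest on the right.

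From early to late growth, more channel genes fell than rose in the pulp. SCN11A, KCNIP2, CACNA1G, KCNH5 and KCNS2 fell, and SCN4B, KCNE4 and KCNJ4 rose. Of the 72 genes tested, 52 differed, 15 higher and 37 lower in late growth, where 53.3% of 14915 tested genes differed (22.4% higher and 30.8% lower). The median log2 fold change was -0.67, beside -0.11 over all tested genes, a median that median-of-ratios scaling moved to -0.02. Summed over the 75 genes, the level was 939 and 1014 TPM in early growth, 624 and 659 TPM in late growth, 374 and 418 TPM near rest and 498 to 507 TPM in the resting apical papilla. The highest group mean was in early growth for 38 of the 75 genes (50.7%) and near rest for 3 (4%). Among all tested genes these shares were 34.2% and 11.3%, but these genes passed a different filter, which 72 of the 75 also passed. Because 20 of the 75 reached 1 TPM in 1 group only, the shares are descriptions of the chosen set. Over all 4 groups, 66 of 72 differed by the F test, where 85% of tested genes did.

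**Figure D4:**
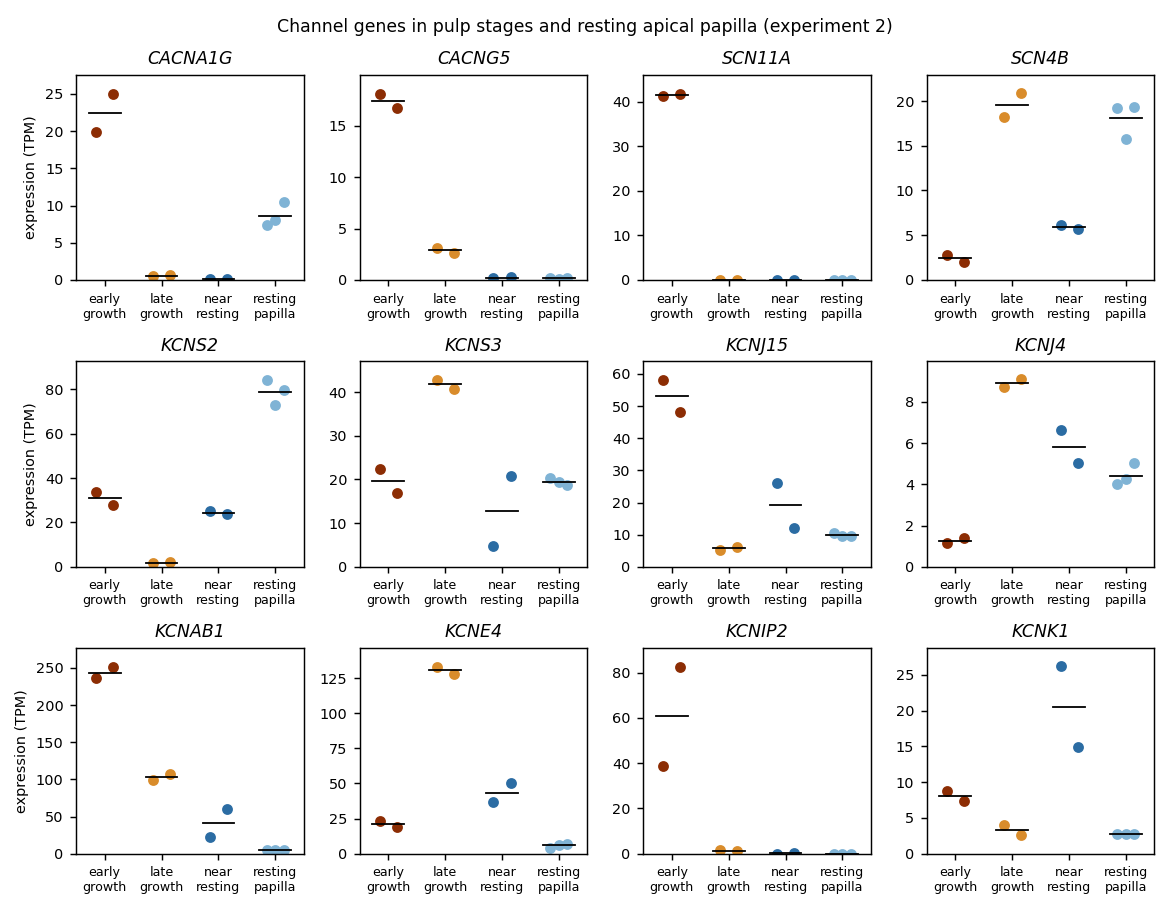
TPM of 12 channel genes in each library (points) of the pulp stages (n = 2 each) and the resting apical dermal papilla (n = 3) of experiment 2, with group means as black lines. SCN11A was at 41.4 and 41.8 TPM in early growth and at 0 in all other groups, KCNE4 peaked in late growth, and KCNS2 was highest in the resting papilla.

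Potassium channel partners had large changes in both directions. KCNIP2 was at 38.9 and 82.3 TPM in early growth, 1.42 and 1.01 TPM in late growth, 0.0457 and 0.141 TPM near rest and at most 0.0646 TPM in the resting papilla (log2 fold change -4.71 ± 0.32 (SE), adjusted p = 1.8e-05). KCNIP4, of the same family, fell from 17.4 and 22.1 TPM to 1.28 and 1.27 TPM (log2 fold change -3.18 ± 0.40 (SE), adjusted p = 0.00035). KCNAB1 was at 236 and 251 TPM, 98.8 and 107 TPM, 22.8 and 60.2 TPM and, in the resting papilla, 5.56, 5.36 and 4.91 TPM. It thus stood lower in each following group, with no overlap. The first step (log2 fold change -1.24 ± 0.36 (SE), adjusted p = 0.02) was lost when any 1 of the 4 libraries was left out (adjusted p up to 0.086), and the fall from early growth to near rest (log2 fold change -2.68 ± 0.36 (SE), adjusted p = 0.00044) was called in every alternative tried. KCNE4 was at 23.2 and 19.1 TPM in early growth, 133 and 128 TPM in late growth, 36.7 and 50.2 TPM near rest and 4.21, 6.33 and 7.13 TPM in the resting papilla. Late growth stood above all other libraries (log2 fold change 2.57 ± 0.23 (SE), adjusted p = 6.6e-05, and log2 fold change -1.58 ± 0.23 (SE), adjusted p = 0.0018 toward rest). KCNE5 rose as well, from 0 and 0.58 TPM to 4.18 and 3.76 TPM (log2 fold change 1.98 ± 0.30 (SE), adjusted p = 0.00089).

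Among potassium pore subunits, KCNH5 fell from 23.0 and 26.5 TPM to 1.06 and 1.3 TPM in late growth (log2 fold change -3.56 ± 0.29 (SE), adjusted p = 4.4e-05). KCNF1, a silent subunit, fell from 7.2 and 7.82 TPM to 0.362 and 0.0885 TPM (log2 fold change -2.80 ± 0.21 (SE), adjusted p = 2.8e-05). KCNS2 went down and up again, with 33.6 and 28.1 TPM in early growth, 1.65 and 2.06 TPM in late growth, 25.0 and 23.8 TPM near rest and 84.1, 72.8 and 79.7 TPM in the resting papilla. The 4 groups did not overlap, and all 3 steps passed the test (log2 fold change -3.48 ± 0.13 (SE), adjusted p = 1.3e-06 for the first, log2 fold change 3.15 ± 0.13 (SE), adjusted p = 5e-06 for the second, log2 fold change 1.65 ± 0.12 (SE), adjusted p = 1.8e-05 for the papilla against near rest). Its fellow silent subunit KCNS3 was highest in late growth, at 42.9 and 40.7 TPM, and at 4.7 and 20.8 TPM near rest, a fall (log2 fold change -1.94 ± 0.51 (SE), adjusted p = 0.023) that was lost with median-of-ratios scaling (adjusted p = 0.053), with quantile normalization (adjusted p = 0.055) and without late growth replicate 1 or 2 (adjusted p = 0.097 and 0.085).

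Of the inward rectifiers, KCNJ15 fell and KCNJ4 rose in late growth. KCNJ15 was at 58.2 and 48.0 TPM and then 5.29 and 6.25 TPM (log2 fold change -3.00 ± 0.30 (SE), adjusted p = 0.00011), and KCNJ4 was at 1.14 and 1.37 TPM and then 8.73 and 9.09 TPM (log2 fold change 2.14 ± 0.20 (SE), adjusted p = 7.4e-05). Neither gene's early and late libraries overlapped. KCNJ8 was at 20.5 and 20.9 TPM in early growth, 31.3 and 28.3 TPM in late growth and 13.5 and 14.5 TPM near rest. Its fall toward rest (log2 fold change -1.04 ± 0.12 (SE), adjusted p = 0.00064) moved with the summed pericyte markers, at 769 to 798 TPM in late growth and 381 to 419 TPM near rest. Within that sum, RGS5 went from a mean of 624 TPM to 272 TPM and PDGFRB from 128 TPM to 107 TPM. The part of pericytes in the KCNJ8 levels was not tested. Among the two-pore genes, KCNK13 fell from 19.5 and 20.0 TPM to 2.28 and 1.64 TPM (log2 fold change -2.82 ± 0.19 (SE), adjusted p = 1.7e-05). KCNK18, a calcium-regulated member known from sensory neurons of mammals, was listed at 0 in early growth and in the resting papilla, and was at 2.87 and 4.21 TPM in late growth and 3.41 and 1.87 TPM near rest. KCNK5 rose in late growth, from 0.912 and 1.07 TPM to 3.66 and 4.09 TPM (log2 fold change 1.29 ± 0.23 (SE), adjusted p = 0.0021), while its neighbour in GRCg7b, KCNK17, did not pass the test (adjusted p = 0.4).

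Between late growth and near rest, fewer channel genes differed. Of 72, 24 passed the test, 5 higher and 19 lower near rest, where 31.1% of tested genes did (8.77% higher and 22.3% lower). The 5 that rose were KCNS2, KCNK1, SCNN1B, KCNMB4 and KCNJ15. KCNMB4 was at 11.2 and 10.8 TPM in early growth, 0.837 and 1.22 TPM in late growth and 5.77 and 4.01 TPM near rest (log2 fold change 1.53 ± 0.22 (SE), adjusted p = 0.0017). KCNA2 fell at both steps, with 28.3 and 28.6 TPM, 8.66 and 9.48 TPM and 2.64 and 2.53 TPM (log2 fold change -1.55 ± 0.14 (SE), adjusted p = 6.3e-05, then log2 fold change -1.49 ± 0.14 (SE), adjusted p = 0.00024). CACNG5 fell further too, from 3.15 and 2.59 TPM to 0.168 and 0.297 TPM (log2 fold change -1.65 ± 0.18 (SE), adjusted p = 0.00046). KCNE3, at 20.8 and 28.5 TPM in early growth, had its highest mean in late growth. It fell from there, from 25.3 and 35.8 TPM to 11.1 and 12.0 TPM (log2 fold change -1.31 ± 0.20 (SE), adjusted p = 0.0024). The median log2 fold change of the set was -0.34, beside -0.16 over all tested genes. Median-of-ratios scaling moved the share of higher calls among all genes from 28.2% to 50.3%, and left 5 higher and 14 lower channel genes. The near resting libraries were the least alike of all replicate pairs, with an SD of their log2 difference over genes of 0.643, against 0.322 to 0.594 in the others.

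**Figure D5:**
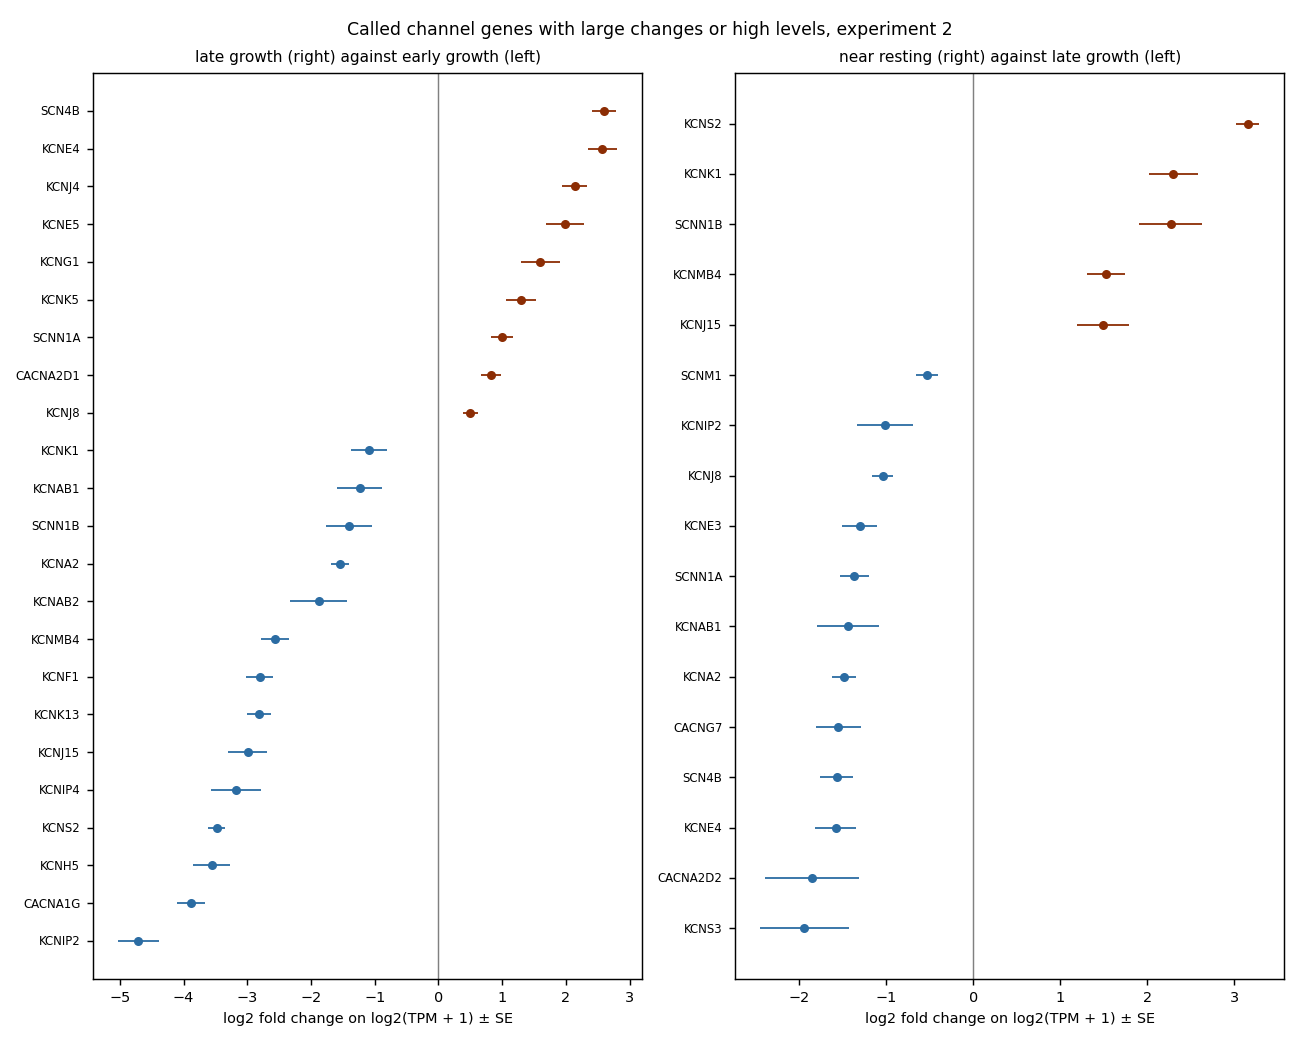
log2 fold change ± SE on log2(TPM + 1) of channel genes with large changes or high levels called by limma in experiment 2, for late against early growth pulp (left) and near resting against late growth pulp (right), without genes listed at 0 in all libraries of 1 side. KCNIP2 and CACNA1G had the lowest and SCN4B the highest of the values plotted on the left, and KCNS2 the highest on the right.

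Across the whole interval from early growth to near rest, 50 of 72 differed, 11 higher and 39 lower near rest, where 55.9% of tested genes did (18.7% higher and 37.3% lower). The median log2 fold change was -0.89, beside -0.23 over all tested genes. Median-of-ratios scaling moved the median of all genes to 0.02 and their share of higher calls from 33.4% to 51.5%, with 14 higher and 36 lower channel genes. All 3 calcium pore subunits were lower near rest, as were 7 of 10 tested calcium channel partners and 7 of 10 potassium channel partners. The CACNA1C call was lost with median-of-ratios scaling, as given above. KCNJ4 (log2 fold change 1.59, adjusted p = 0.0003) and KCNK1 (log2 fold change 1.2, adjusted p = 0.0075) were among the genes that were higher. KCNRG, at 5.03 and 5.47 TPM in early growth, was higher near rest too (adjusted p = 0.028), a call lost when 1 of several libraries was left out (adjusted p up to 0.1). This comparison shares its libraries with the 2 steps above.

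The resting apical papilla differed from near resting pulp in 38 of 72 genes, 24 higher and 14 lower, where 62.5% of tested genes differed (40.9% higher and 21.6% lower), so its share of channel genes was below the background. The median log2 fold change was 0.23, beside 0.25 over all tested genes. Median-of-ratios scaling moved the median of all genes to 0.00 and their share of higher calls from 65.4% to 49.4%, with 20 higher and 17 lower channel genes. KCNS2, given above, was highest in the resting papilla. CACNG2 and CACNG3 were at 7.11, 5.48 and 5.28 TPM and 4.1, 5.55 and 5.5 TPM, above all pulp libraries of the experiment (adjusted p = 0.00092 and 4.9e-05). KCNK13 was at 13.9, 14.6 and 14.0 TPM, against 1.39 and 2.08 TPM near rest (log2 fold change 2.48 ± 0.17 (SE), adjusted p = 1.4e-05). Among the genes that were lower, KCNE4 had the largest change (log2 fold change -2.70 ± 0.21 (SE), adjusted p = 2.4e-05), and KCNAB1 followed (log2 fold change -2.61 ± 0.33 (SE), adjusted p = 0.00026). KCNRG was also lower, at 4.16 to 4.67 TPM against 8.34 and 8.02 TPM near rest (log2 fold change -0.75 ± 0.16 (SE), adjusted p = 0.0045). SCNM1, the splicing factor, was at 41.2, 42.5 and 36.5 TPM and 17.3 and 15.1 TPM (log2 fold change 1.26 ± 0.12 (SE), adjusted p = 6e-05). Fibroblast and dermal mesenchyme markers summed to 9183 to 10694 TPM in the resting papilla and 21747 to 26428 TPM near rest. In the same order, keratinocyte markers summed to 298 to 437 TPM and 8821 to 24376 TPM, and erythroid markers to 2719 to 5456 TPM and 244 to 482 TPM. KCNK1, at 2.71 to 2.82 TPM, and SCNN1B, at 3.10 to 5.42 TPM, were among the genes lower in the resting papilla. The part of cell composition in these differences was not tested.

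Levels in the growing papilla of experiment 1 and the resting apical papilla of experiment 2 can be set side by side but not tested, because the tables were normalized separately and the apical part is not the whole papilla. KCNAB1 was at 55.7 to 58.0 TPM in the growing papilla and 4.91 to 5.56 TPM at rest. KCNE4 was at 57.5 to 61.9 TPM and 4.21 to 7.13 TPM, and KCNJ2 at 25.9 to 42.5 TPM and 1.86 to 2.40 TPM. In the other direction, KCNS2 was at 8.70 to 11.6 TPM and 72.8 to 84.1 TPM. KCNK13 was at 10.6 to 15.7 TPM and 13.9 to 14.6 TPM. The smooth muscle markers summed to 27879.8 to 30179 TPM and 264 to 271 TPM in these 2 groups.

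Early growth pulp was sampled in both experiments, and there some genes can be set side by side in the same way, as examples. SCN11A was at 38.7 to 57.8 TPM in the 6 pulp libraries of experiment 1 and at 41.4 and 41.8 TPM in early growth pulp of experiment 2. KCNAB1 was at 136 to 248 TPM and at 236 and 251 TPM. CACNA1G was at 23.5 to 49.3 TPM and at 19.9 and 25.1 TPM, and KCNH5 at 11.1 to 16.5 TPM and at 23.0 and 26.5 TPM. Like KCNH5, other genes did not overlap between the experiments. KCNJ8 was at 48.3 to 71.9 TPM and at 20.5 and 20.9 TPM, and KCNE3 at 36.3 to 127 TPM and at 20.8 and 28.5 TPM. KCNIP4 was at 1.15 to 9.00 TPM and at 17.4 and 22.1 TPM. Libraries of different birds or dissections cannot be told apart from the separate normalization in these pairs.

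Other genes of ion transport were counted in 6 lists, to be read against all tested genes, of which 24.9% were higher and 40.3% lower in base than pulp, and 22.4% higher and 30.8% lower in late than early growth. Channel partners outside the symbol rule were higher in base than pulp in 11 and lower in 1 of 17 tested. GEM, which lowers calcium channels at the surface, was at 917 ± 74.2 TPM in the papilla, 435 ± 34.4 TPM in the sheath, 147 ± 10.6 TPM in the peripheral and 279.7 ± 26.2 TPM in the central pulp (SD, n = 3). ABCC8, the sulfonylurea receptor that joins KCNJ11 in ATP-sensitive channels, was at 56.8 ± 7.06 TPM in the papilla and 14.9 ± 3.3 TPM in the peripheral pulp, whereas KCNJ11 was at 0.744 ± 0.479 TPM and 2.09 ± 0.78 TPM. STAC, a calcium channel adaptor, was at 11.9 ± 5.63 TPM in early and 362 ± 8.02 TPM in late growth pulp (SD, n = 2). In late against early growth, 4 of these 17 were higher and 5 lower.

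In the list of connexins and pannexins, which connect cells or open to the outside, 6 were higher and 3 lower in base than pulp of 11 tested, and 4 higher and 3 lower in late growth of 12. PANX2 was at 46.1 ± 4.82 TPM in the central pulp and 1.07 ± 0.142 TPM in the sheath. GJB6, an epidermal connexin, was at 65.9 ± 5.23 TPM in the sheath and 1.35 ± 0.613 TPM in the papilla, and at 138 ± 5.72 TPM near rest, where the keratinocyte markers were highest. Of 15 genes of calcium release and store-operated entry, 6 were higher and 3 lower in base than pulp, led by the calcium pump gene ATP2B1 (192 ± 23.8 TPM in the papilla, 13.2 ± 1.11 TPM in the peripheral pulp), and 2 were higher and 4 lower in late growth.

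Of 12 TRP, piezo and HCN cation channels, 6 were higher and 2 lower in base than pulp. TRPC4 was at 70.6 ± 8.57 TPM in the papilla and 1.79 ± 0.748 TPM in the central pulp, and the touch channel PIEZO2 at 102 ± 16.6 TPM in the sheath and 4.8 ± 2.31 TPM in the peripheral pulp. In late growth 6 of 13 were higher and 2 lower, with TRPV2 at 37.4 ± 0.337 TPM in early and 157 ± 7.81 TPM in late growth. Of 21 chloride channel genes, 9 were higher and 7 lower in base than pulp, and of 23 in experiment 2, 10 were higher and 4 lower in late growth. LRRC8D, a subunit of the volume-regulated anion channel, was at 88.0 ± 17.3 TPM in the central pulp and 3.99 ± 0.56 TPM in the papilla. Of 5 sodium pump genes, 4 were higher and none lower in base than pulp, and 3 were higher and 1 lower in late growth. For base against pulp, the median log2 fold change was 0.50 in the list of channel partners, 0.26 in connexins and pannexins, 0.15 in calcium release, 0.55 in the cation channels, 0.17 in chloride channels and 0.74 in the sodium pump, beside -0.13 over all tested genes. For late against early growth these medians were -0.11, -0.06, -0.35, 0.34, 0.34 and 1.41 in the same order, beside -0.11 over all tested genes. No difference between the lists was tested, nor any list against the other genes.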

How the data were processed

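The authors deposited 1 table of TPM values per experiment, 12 and 9 libraries from total RNA, per the labels. The submitters' processing notes name TopHat2 2.1.1, and also Cufflinks 2.2.1.2 along with Cuffdiff 2.2.1.3, without a role. The genome build is not given in the sources used here, nor is the annotation. TPM keeps no depth and is relative: when some abundant genes rise, the rest go down. A value of exactly 0 is described as listed at 0. Each table was normalized separately, so tests were made within a table.

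Genes at 1 TPM or more in at least 3 libraries (experiment 1, 13804 genes) or 2 libraries (experiment 2, 14915 genes) were fitted with limma 3.58.1 (R 4.3.3), using log2(TPM + 1) and group means over all libraries and trend and robust variances. This left 68 of 68 and 72 of 75 channel genes tested. Contrasts were two-sided, adjusted by Benjamini-Hochberg over all tested genes, and called at 0.05. Fold changes on this scale understate those of low genes. The alternatives were a pseudocount of 0.1, no filter, quantile normalization, median-of-ratios scaling, variances without trend or robust settings, the replicate number as a block, and leaving out each library.

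The channel genes, marker lists and related lists were chosen with earlier results of these data known. Named genes were the 10 largest and 10 smallest fold changes per contrast among called genes with a mean of at least 3 TPM in 1 group, those with a group mean of at least 20 TPM, and 3 per related list. Others (such as KCNK17, KCNN1, SCN8A, SCN9A) were named after their values were seen, and some genes that met the rule are not reported here. Gene order came from RefSeq (GRCg7b), where 76 of 80 symbols matched. No sequences are printed.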

Additional observations from a re-analysis of the deposited data

How the results depend on the processing

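No channel gene that passed the test changed direction under any alternative run. The number of called channel genes moved by more than 1.5 times in 1 comparison, peripheral against central pulp, from 16 to 10 with a pseudocount of 0.1 TPM. Leaving out 1 library at a time gave 51 to 54 calls for papilla and sheath against pulp (54 with all libraries), 25 to 30 for papilla against sheath (29), 10 to 19 for peripheral against central pulp (16, with 10 without central pulp replicate 3), 42 to 54 for late against early growth (52), 16 to 27 for near resting against late growth (24), 45 to 52 for near resting against early growth (50) and 35 to 39 for the resting apical papilla against near resting pulp (38). For libraries with the same replicate number, correlations of their deviations from group means lay between -0.085 and 0.143 in experiment 1 and between -0.040 and 0.113 in experiment 2. With 2 or 3 libraries per group these values cannot decide whether the libraries were paired, and the labels do not say. With the replicate number as a block the counts were 53, 30, 17, 47, 19, 49 and 36 in the same order. Called in every alternative were 46 of 54, 24 of 29, 8 of 16, 36 of 52, 12 of 24, 41 of 50 and 31 of 38. Of the named genes' fold changes, 125 lost and 49 gained a call over all fits that left out a library, and 2886 kept their side of the threshold. Depth is unknown, so the precision of genes near 1 TPM cannot be given. With 2 libraries per pulp stage, leaving out 1 left a single library, assumed to vary like the other groups.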
